A study of Homo sapiens with 30 samples.

Results

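The step from 0.1 to 10 nM of R1881, a synthetic androgen that binds the androgen receptor and is not readily metabolised, was followed in open chromatin of LNCaP. LNCaP is an established androgen-sensitive human prostate cancer cell line, derived from a metastasis, whose receptor carries a mutation that widens the range of steroids it responds to. The comparison takes 6 of the study's 30 libraries, 3 at 10 nM and 3 at 0.1 nM, each numbered replicate 3, 4 and 5. They were chosen by the line and dose on their labels and by no measured value. The study asked which accessible sites separate low from high androgen, because growth of these cells is not linear with dose.

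Both groups were seeded in medium with 8% serum treated with charcoal and dextran, which is poor in steroids, and received R1881 48 hours later for 24 hours. The same schedule was used for 9 further LNCaP libraries, 3 each at 0.06 nM, 0.03 nM and vehicle, and for VCaP, a prostate cancer line known for a fusion of TMPRSS2 with ERG, of which 3 libraries at 10 nM and 3 at 0.06 nM (replicates 1, 2 and 4) are used below. Chromatin was assayed by Omni-ATAC-seq, in which the Tn5 transposase cuts and tags accessible DNA. The labels do not say whether replicates came from separate cultures, so the p-values below measure only the spread between libraries, which may be technical. LNCaP and VCaP are single lines and stand for no other tumour.

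Androgen receptor bound to ligand moves to the nucleus and binds DNA as a dimer, at elements built from a pair of AGAACA-like hexamers, mostly in enhancers far from promoters. Forkhead factors such as FOXA1 open many of these enhancers in prostate luminal cells. Classic targets include KLK3, which encodes prostate-specific antigen, KLK2, TMPRSS2 and FKBP5. High androgen is also known to slow the growth of LNCaP.

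The deposited lists held 167378, 219021 and 223998 peaks at 10 nM and 142082, 167370 and 211664 peaks at 0.1 nM. Read numbers are unknown because the lists hold no counts. On chromosomes 1 to 22 and X, every list was cut to its 141545 strongest entries, the length of the shortest list, 0.1 nM replicate 3. The cut fell at a −log10 p of 3.59, 8.15 and 7.14 at 10 nM and of 2, 3.03 and 6.39 at 0.1 nM. An entry cut from a 10 nM list could therefore be stronger, by its own p, than one kept at 0.1 nM. Each region is a 501 bp window around a summit, and its value is the place of its best summit within the list, ordered by −log10 p and written as a percentile rank from 0 (no summit in the cut list) to 100. All differences are 10 nM minus 0.1 nM, in percentile points, and a rank gives a place within a library, not an absolute signal. In bulk libraries, fewer cells with an open site and less opening per cell cannot be told apart.

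Luminal prostate markers were listed throughout. All 10 luminal markers had a listed region within 1 kb of a gene end in all 6 libraries, with summed ranks of 807 to 899 at 10 nM and 850 to 909 at 0.1 nM. Of the basal markers, KRT5, KRT14, KRT15 and TP63 were not listed in any of the 6, and LAMB3 and S100A2 were listed in all of them. The basal list as a whole had 2 of 8 markers listed in each 10 nM library (summed rank 174 to 176) and 2 to 4 of 8 at 0.1 nM (150 to 183). Immune markers numbered 2 to 3 of 7 at 10 nM (summed rank 115 to 162) and 1 to 3 of 7 at 0.1 nM (62.2 to 166), with CD3E and MS4A1 at 0 throughout. Stromal markers numbered 3 of 6 in every library (165 to 182 at 10 nM and 178 to 205 at 0.1 nM), with COL1A1, COL3A1 and DCN at 0, and neuroendocrine markers 5 of 7 (340 to 375 and 375 to 393), with INSM1 and NEUROD1 at 0. Open chromatin at a gene end does not show that the gene was transcribed.

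At 10 nM, 4216 regions ranked higher and 1717 ranked lower than at 0.1 nM, of 133085 tested regions with a summit in at least 3 of the 6 libraries. These are 3.17% and 1.29% of the regions tested, 4.46% together, so 71.1% of the calls were higher; this share was 94.4% with all peaks as deposited and 57.6% on summit pileups. The test was limma with Benjamini-Hochberg adjustment over all regions, called at an adjusted p under 0.05. Higher regions gained a median of 40.2 points (3.38 to 89.2), and the median change of lower regions was −37.0 points (5.25 to 86.3 in size). The median over all tested regions was −0.128 and the median standard error of a difference was 7.67. When a peak also had to cover the window's centre, 3488 higher and 1274 lower regions remained called (3.58% of those tested).

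The calls rest on few libraries. Without 10 nM replicate 4 or without 10 nM replicate 5, limma called 0 regions, although 21835 and 20757 had an unadjusted p under 0.05, against 28682 with all 6 libraries and 6654 expected with no change. Leaving out 0.1 nM replicate 3 or 4 left 1288 and 1144 calls, and leaving out 10 nM replicate 3 left 3728, of which 52.9% were higher. Replicates 4 and 5 at 10 nM resembled each other (Spearman's rho 0.936 across regions) more than either resembled 10 nM replicate 3 (0.867 and 0.863). They also had the longest lists, together with 0.1 nM replicate 5. Among the 3 long lists the higher regions had a median difference of 38.8 and the lower ones −33.2, and among the 3 short lists 38.7 and −33.4. Groups did not overlap at any called region, as at 14.3% (10 nM higher) and 12.3% (10 nM lower) of all tested regions, so the direction within these classes is fixed by the call.

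**Figure D1:**
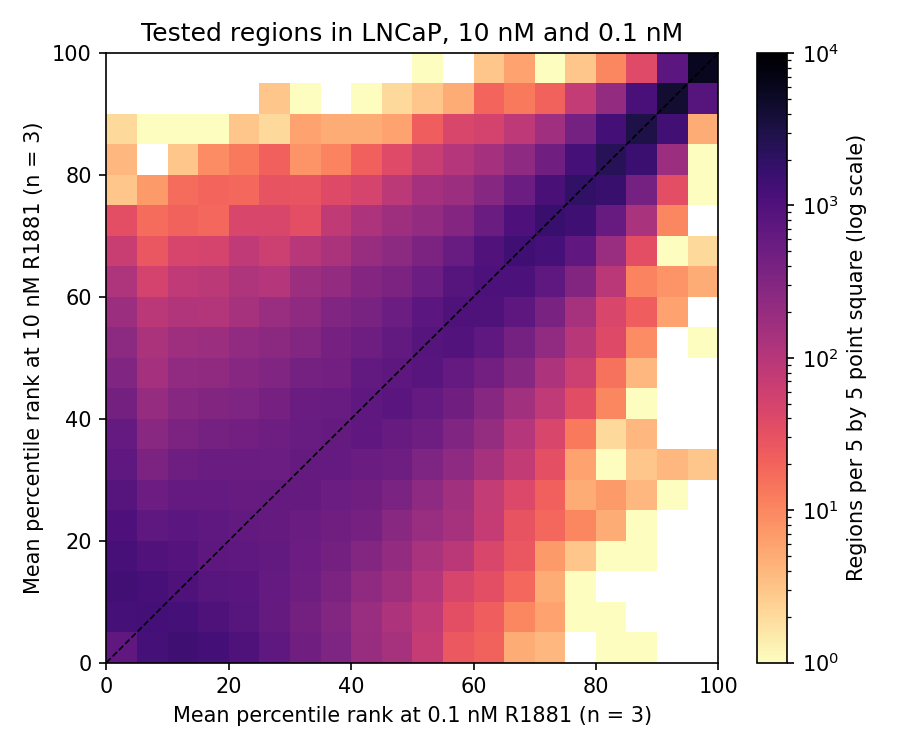
Mean percentile rank of the 133085 tested LNCaP regions at 10 nM R1881 (vertical axis, 3 libraries) and at 0.1 nM (horizontal axis, 3 libraries), as the number of regions per square of 5 by 5 points on a log colour scale. Most regions lie along the dashed line of equal ranks, and a fan of regions near 0 at 0.1 nM reaches up to 89.2 at 10 nM.

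Among the 13245 regions with a mean rank of at least 90 at 0.1 nM, 71 were called higher (0.536%) and 93 lower (0.702%), and a rank there has little room to rise. Of the 4419 tested regions with no summit in any 0.1 nM list, 1341 (30.3%) were called higher, and these had to be listed in all 3 10 nM libraries to be tested at all. A further 1862 of the higher regions were already listed in all 3 0.1 nM libraries. At the other end, 271 of the lower regions had no summit in any cut 10 nM list and 1032 were still listed in all 3.

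A value of 0 had a different content in the 2 groups. Of the 1465 zeros that lower regions had at 10 nM, 820 (56.0%) had a summit in the list as deposited, below the cut. Of the 5703 zeros that higher regions had at 0.1 nM, 676 (11.9%) did. With all peaks as deposited, 1305 regions were called, 1232 higher and 73 lower. Of the calls on the cut lists, 1188 higher and 73 lower ones were among them. Uncut lists differ in length, so their percentile ranks are on unlike scales. Why fewer lower calls remained was not tested.

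Changed sites lay away from gene ends. A gene end within 1 kb was found for 102 of the higher regions (2.42%) and 62 of the lower ones (3.61%), against 12.9% of all tested regions. The median distance to a gene end was 37.9 kb for higher, 51.3 kb for lower and 26.6 kb for all tested regions. About equal shares lay inside a protein-coding gene, 50.3% of higher, 50.6% of lower and 52.9% of all tested regions. The share called higher was smallest on chromosome 19 (1.15%) and largest on chromosome 8 (3.72%).

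The 12 largest rises and 12 largest falls described next are those called also when a peak had to cover the window's centre, 1 per nearest gene, without overlap of the doses. These rises were at sites with no summit in most 0.1 nM lists, and 9 of the 12 had none in any of the 9 vehicle, 0.03 and 0.06 nM lists either. Inside LEKR1 (chr3:156906261-156906761, GRCh38) the rank was 90.4, 88.1 and 89.0 at 10 nM and 0 in all 3 libraries at 0.1 nM. Inside STK3, which encodes a kinase of the Hippo pathway, it was 82.4, 81.3 and 82.0 at 10 nM and 0 in all 3 at 0.1 nM. Both sites were strong in every 10 nM list and absent from every cut 0.1 nM list.

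A site inside VPS26B, a subunit gene of the retromer sorting complex, ranked 83.6, 76.5 and 85.4 at 10 nM and 0 in all 3 libraries at 0.1 nM. Near SPA17, a sperm surface protein gene, the ranks were 83.7, 80.3 and 78.2 at 10 nM and 0 at 0.1 nM. ST18, a zinc-finger transcription factor gene, had a site 76.4 kb away at 87.2, 81.9 and 92.2 at 10 nM, against 0, 0 and 17 at 0.1 nM. The site in SLC6A3, the dopamine transporter gene, was the one among the 12 with summits in more than 1 list at 0.1 nM, with 86.4, 87.0 and 90.3 at 10 nM against 0, 28.2 and 1.89 at 0.1 nM.

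The other 6 rises were near CHN2, a Rac GTPase-activating protein gene, NDUFAF6, a complex I assembly factor gene, VANGL1, a planar polarity gene, PDK4, PPARGC1A and FRYL. All 6 were at 0 in all 3 0.1 nM libraries and between 66.8 and 82.5 at 10 nM. Over the 12, differences ran from 73.3 to 89.2 points with standard errors of 6.99 to 8.65, and each had a limma adjusted p of 0.0160. Of the 33 zeros these sites had at 0.1 nM, 2 had a summit below the cut in the deposited list.

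**Figure D2:**
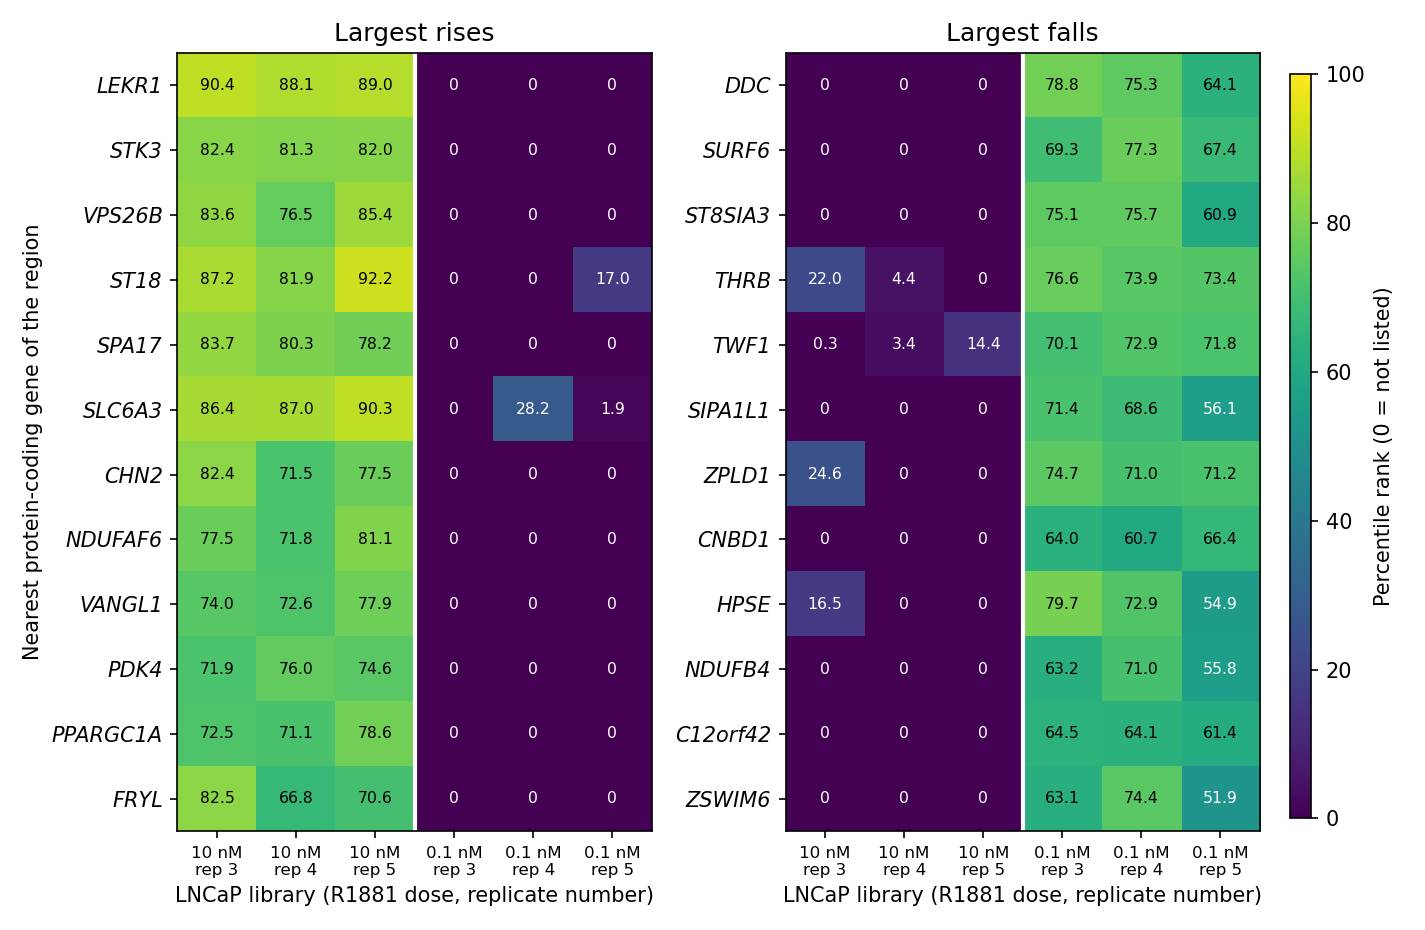
Percentile rank in each library (columns, 10 nM left of 0.1 nM) at the 12 regions with the largest rises (left) and the 12 with the largest falls (right) among those called also with the window's centre covered, named by nearest gene; 0 means no summit in the cut list. The rises are at 66.8 to 92.2 in every 10 nM library and the falls at 51.9 to 79.7 in every 0.1 nM library, with no overlap between doses at any of the 24.

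The largest of these falls was inside DDC, which encodes the decarboxylase that makes dopamine and serotonin (chr7:50489531-50490031). Its rank was 0 in all 3 libraries at 10 nM and 78.8, 75.3 and 64.1 at 0.1 nM, while the 3 vehicle libraries had 91.7, 93.7 and 90.5. SURF6, a nucleolar protein gene, held a site at 0 in all 3 libraries at 10 nM and at 69.3, 77.3 and 67.4 at 0.1 nM. A site 0.311 kb from an end of TWF1, an actin-binding protein gene, had 0.314, 3.42 and 14.4 at 10 nM and 70.1, 72.9 and 71.8 at 0.1 nM. All 3 sites were well separated between doses, and at DDC and TWF1 the vehicle ranks were above those of both doses.

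A site 43.1 kb from THRB, a thyroid hormone receptor gene, ranked 22, 4.38 and 0 at 10 nM and 76.6, 73.9 and 73.4 at 0.1 nM. Near HPSE, the heparanase gene, the values were 16.5, 0 and 0 at 10 nM against 79.7, 72.9 and 54.9 at 0.1 nM. The other 7 falls were near ST8SIA3, a sialyltransferase gene, SIPA1L1, ZPLD1, CNBD1, NDUFB4, a complex I subunit gene, C12orf42 and ZSWIM6. They lay between 0 and 24.6 at 10 nM and between 51.9 and 75.7 at 0.1 nM. Over the 12 falls, differences ran from −72.7 to −63.1 points, standard errors from 8.30 to 9.97 and adjusted p from 0.0160 to 0.0178. Of their 29 zeros at 10 nM, 14 had a summit below the cut in the deposited list, so those sites had not lost every peak.

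Most changed sites were not at promoters, but those that were allow the DNA to be read. Windows called higher overlapped 54 RefSeq promoters and windows called lower 40. The 250 bases before the start are printed below for 6 genes, on GRCh38.p14 from RefSeq, 5′ to 3′ on the gene's strand. CXCL11, TMEM125 and SLC10A6 are rises, KRTAP3-3 and OR10G7 are falls, and KLK3 is an androgen-responsive promoter whose window was not called. Capitals mark AGAACA, one arm of an androgen response element, on either strand. The stretches are KLK3 chr19:50854665-50854914 (plus strand), CXCL11 chr4:76036071-76036320 (minus), TMEM125 chr1:43269733-43269982 (plus), SLC10A6 chr4:86849385-86849634 (minus), KRTAP3-3 chr17:40994165-40994414 (minus) and OR10G7 chr11:124041326-124041575 (minus).
CXCL11: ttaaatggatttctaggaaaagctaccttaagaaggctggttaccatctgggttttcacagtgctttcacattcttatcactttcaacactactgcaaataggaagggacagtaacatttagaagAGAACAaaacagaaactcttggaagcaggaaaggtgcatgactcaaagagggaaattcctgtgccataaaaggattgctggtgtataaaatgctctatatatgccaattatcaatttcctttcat
TMEM125: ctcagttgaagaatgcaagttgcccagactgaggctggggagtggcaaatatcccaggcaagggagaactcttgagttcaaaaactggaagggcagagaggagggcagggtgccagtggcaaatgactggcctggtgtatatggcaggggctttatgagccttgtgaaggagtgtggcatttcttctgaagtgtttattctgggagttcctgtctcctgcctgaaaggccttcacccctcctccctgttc
SLC10A6: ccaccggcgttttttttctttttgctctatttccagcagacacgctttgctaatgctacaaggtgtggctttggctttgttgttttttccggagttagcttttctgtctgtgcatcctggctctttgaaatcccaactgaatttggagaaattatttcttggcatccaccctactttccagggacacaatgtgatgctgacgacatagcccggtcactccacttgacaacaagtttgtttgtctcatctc
KRTAP3-3: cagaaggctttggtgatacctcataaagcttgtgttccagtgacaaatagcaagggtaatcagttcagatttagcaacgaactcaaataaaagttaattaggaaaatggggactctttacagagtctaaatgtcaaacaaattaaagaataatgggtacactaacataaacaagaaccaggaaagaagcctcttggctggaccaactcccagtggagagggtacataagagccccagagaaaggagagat
OR10G7: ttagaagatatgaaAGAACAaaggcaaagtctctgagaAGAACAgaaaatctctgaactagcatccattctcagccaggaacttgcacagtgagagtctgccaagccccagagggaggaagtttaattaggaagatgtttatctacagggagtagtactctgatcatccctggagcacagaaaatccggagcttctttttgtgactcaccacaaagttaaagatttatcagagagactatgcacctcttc
KLK3: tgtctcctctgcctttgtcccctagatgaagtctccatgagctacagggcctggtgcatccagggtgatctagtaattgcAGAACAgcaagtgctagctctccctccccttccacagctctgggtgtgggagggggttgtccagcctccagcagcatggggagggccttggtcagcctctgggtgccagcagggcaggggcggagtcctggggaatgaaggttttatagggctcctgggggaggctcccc

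CXCL11 encodes an interferon-induced chemokine, and its start lies within the ART3 gene body. The window over its promoter ranked 51.7, 75.9 and 63.3 at 10 nM, against 6.39, 0 and 7.73 at 0.1 nM (difference 58.9 ± 9.60 SE, limma adjusted p = 0.0191). The 10 nM libraries were all far above the 0.1 nM ones. The AGAACA hexamer in its promoter starts at position −125, counted from the start.

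TMEM125, a transmembrane protein gene, had 56.8, 41.5 and 59.6 at 10 nM and 0 in all 3 libraries at 0.1 nM (difference 52.6 ± 9.43 SE, limma adjusted p = 0.0231). SLC10A6, which encodes a transporter of sulfated steroids, had 48.0, 58.8 and 49.2 at 10 nM and 0, 6.67 and 7.73 at 0.1 nM (47.2 ± 9.10, adjusted p = 0.0277). Doses did not overlap at either promoter, and neither stretch holds AGAACA.

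The promoter window of KRTAP3-3, a hair keratin-associated protein gene, ranked 29.3, 0 and 9.55 at 10 nM and 55.0, 76.1 and 54.5 at 0.1 nM (−48.9 ± 10.8, adjusted p = 0.0396). That of OR10G7, an olfactory receptor gene, had 43.8, 36.3 and 39.5 at 10 nM and 70.4, 67.2 and 69.2 at 0.1 nM (−29.1 ± 5.67, adjusted p = 0.0286). Both were lower in every 10 nM library than in any 0.1 nM library. OR10G7 holds 2 AGAACA hexamers.

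AGAACA was found in 18 of the 54 promoters under higher windows (33.3%), in 5 of the 40 under lower windows (12.5%), in 7.24% of the 16147 under tested windows and in 12.4% of all 35116 RefSeq promoters. The forkhead motif TGTTTAC was in 5 of 54 (9.26%), 2 of 40 (5%), 2.42% and 2.98%. Both strands were searched. The full androgen response element (AGAACA and TGTTCT with any 3 bases between them), which contains AGAACA, was in 1 promoter of all and in none under a called window. Base composition moved with these shares: the median GC content was 45.2% under higher windows, 57.4% under lower ones, 65.6% under tested ones and 58.0% over all promoters, and its part in the motif shares was not tested.

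Established androgen targets are given first at sites picked among the highest-ranked ones of each gene, where a rank has little room to rise; none of these sites was called. The site 0.482 kb outside KLK3 (chr19:50860996-50861496) ranked 89.7, 87.3 and 93.7 at 10 nM and 85.7, 88.6 and 89.8 at 0.1 nM, with overlap (2.17 ± 1.92, limma adjusted p = 0.569). It was at 0 in all 3 vehicle libraries. The KLK3 promoter window, whose AGAACA hexamer starts at position −170 in the sequence above, had 90.2, 66.2 and 75.9 at 10 nM and 87.6, 89.6 and 71.3 at 0.1 nM (−5.42 ± 6.57, adjusted p = 0.690).

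A site 9.24 kb from KLK2, a sister kallikrein gene, had 96.5, 97.4 and 98.4 at 10 nM and 95.9, 97.3 and 97.2 at 0.1 nM (0.624 ± 0.885, adjusted p = 0.737). Inside FKBP5, a co-chaperone gene of steroid receptors, one site had 97.4, 96.9 and 97.6 at 10 nM and 92.5, 94.1 and 79.3 at 0.1 nM (8.69 ± 3.49, adjusted p = 0.202), and every 10 nM library lay above every 0.1 nM one. Doses did overlap at the KLK2 site.

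Windows at gene ends of TMPRSS2 and FKBP5 were not called either. Ranks 0.046 kb from TMPRSS2 were 91.9, 89.9 and 83.0 at 10 nM and 94.1, 93.3 and 89.0 at 0.1 nM (−3.90 ± 2.34, limma adjusted p = 0.381). At FKBP5, 0.442 kb from a gene end, they were 93.7, 94.0 and 94.2 at 10 nM and 95.9, 96.1 and 95.9 at 0.1 nM (−2 ± 0.874, adjusted p = 0.223). Doses overlapped at TMPRSS2, while every 10 nM library lay below every 0.1 nM one at FKBP5.

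Other sites, given to a gene as its nearest, were called at TMPRSS2 and FKBP5 but not at KLK3 and KLK2. Of 6 tested regions of KLK3 and 5 of KLK2, limma called 0, while TMPRSS2 had 1 higher and 1 lower of 22 and FKBP5 had 2 higher and 2 lower of 23. The TMPRSS2 site that fell had 43.2, 45.2 and 54.6 at 10 nM and 78.3, 77.0 and 79.8 at 0.1 nM (−30.7 ± 4.87, adjusted p = 0.0181). The one that rose, 12 kb outside the gene, had 41.2, 34.2 and 43.5 at 10 nM and 0 in all 3 at 0.1 nM (39.6 ± 8.53, adjusted p = 0.0366). This rise lost its call by fold enrichment, with no filter and with −log10 q of at least 5. One of the FKBP5 rises, 4.45 kb outside the gene, had a difference of 22.5 by −log10 p and of −10.8 when peaks were ranked by fold enrichment.

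**Figure D3:**
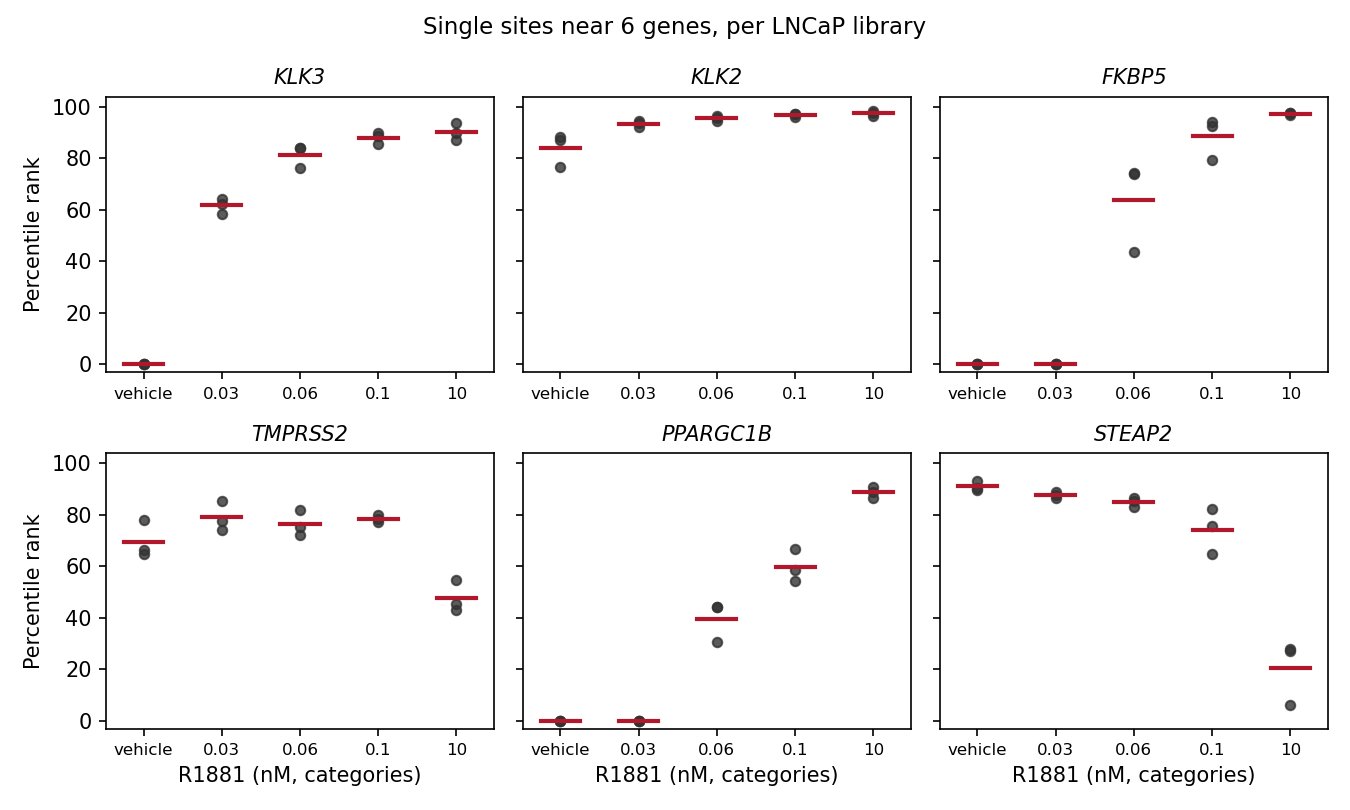
Percentile rank in each LNCaP library (points) and group mean of 3 (bars) by R1881 dose at single sites near KLK3, KLK2, FKBP5, TMPRSS2, PPARGC1B and STEAP2. The KLK3, KLK2 and FKBP5 sites were picked for high rank and were not called. Those of TMPRSS2, PPARGC1B and STEAP2 were picked among called regions, so the panels do not compare whole genes. Ranks near KLK3 and KLK2 differ by at most 2.17 points between the means at 10 nM and 0.1 nM, while the PPARGC1B site is 28.9 points higher and the TMPRSS2 and STEAP2 sites are 30.7 and 53.8 points lower at 10 nM.

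The androgen-induced list covers 68 genes known to respond to androgen in prostate cells, of which 62 had 840 tested regions. At 10 nM, 34 of these regions ranked higher (4.05%) and 18 lower (2.14%), beside 3.17% and 1.29% of all regions, and the list's median difference was −0.0103, beside −0.128 for all. Rises fell on 24 of the genes and falls on 16, with 6 genes having both. Ranked by fold enrichment the list had 14 higher and 18 lower, and without 10 nM replicate 3 it had 15 and 19.

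NDRG1, a stress-responsive differentiation gene, had a site 61.8 kb away at 64.4, 71.9 and 80.8 at 10 nM, against 0, 0 and 16.1 at 0.1 nM (67.0 ± 9.07, limma adjusted p = 0.0160). TUBA3D, an alpha-tubulin gene, had 85.5, 85.0 and 82.5 at 10 nM and 55.0, 58.8 and 61.7 at 0.1 nM (25.8 ± 3.54, adjusted p = 0.0163). TPD52, a gene often gained in prostate cancer, had 86.8, 86.8 and 90.1 at 10 nM and 75.1, 73.2 and 68.7 at 0.1 nM (15.6 ± 2.65, adjusted p = 0.0210). All 3 were higher in every 10 nM library. Sites near OTULINL, RAB4A and LRIG1 also rose, by 18.6 to 24.9 points.

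STEAP1 and STEAP2, neighbouring metalloreductase genes, had falls. The STEAP2 site, 11.3 kb from the gene, had 27.1, 28.0 and 6.15 at 10 nM and 82.1, 64.9 and 75.6 at 0.1 nM (−53.8 ± 8.65, adjusted p = 0.0186). A site 93.2 kb from STEAP1 had 48.0, 39.2 and 39.5 at 10 nM and 79.9, 77.4 and 73.7 at 0.1 nM (−34.8 ± 5.21, adjusted p = 0.0171). In both, the vehicle libraries had higher ranks still, 86.6 to 93.1. A site inside TSC22D3, a glucocorticoid-induced leucine zipper gene, fell by 52.8 points and one inside FKBP5 fell by 40.8, but neither passed when a peak had to cover the centre of the window.

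Over the androgen-repressed list, 9 of 234 regions ranked higher (3.85%) and 11 lower (4.70%), with a median difference of −2.15. The balance of the list turned round when ranked by fold enrichment (10 higher, 8 lower), with −log10 q of at least 5 (11 and 8), on summit pileups (12 and 7) and at regions listed in all 6 libraries (8 and 6). These shares stand beside 3.17% and 1.29% of all tested regions. DDC, whose fall is given above, is on this list, as are MET, a receptor tyrosine kinase gene with a rise of 56.6 points, and OPRK1, an opioid receptor gene with a fall of 59.7, which became a difference of 6.21 when a peak had to cover the window's centre.

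Coregulators bind the receptor and raise or lower its activity. Over 367 regions of 25 coregulator genes, 7 ranked higher (1.91%) and 6 lower (1.63%), beside 3.17% and 1.29% of all tested regions, and falls outnumbered rises with all 15 LNCaP libraries (13 higher, 14 lower), with the replicate block (8 and 13), on summit pileups (5 and 9), at regions listed in all 6 libraries (4 and 7) and without 10 nM replicate 3 (3 and 5). Rises included 4 regions at KDM4C and 1 at PIAS1, and the falls lay at NCOA1 (2), NCOA2, NCOA3, NCOA7 and TLE1 (1 each). The NCOA3 site, in a coactivator gene of the p160 family, had 16.5, 24.2 and 2.54 at 10 nM and 73.3, 72.9 and 58.9 at 0.1 nM (−53.9 ± 9.05, limma adjusted p = 0.0204). KDM4C, a histone demethylase gene, had 75.5, 62.0 and 67.6 at 10 nM and 0 in all 3 libraries at 0.1 nM.

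Among other nuclear receptor genes, 14 of 395 regions ranked higher (3.54%, beside 3.17% of all regions) and 11 lower (2.78%, beside 1.29%), a balance that turned on summit pileups (6 and 8) and at regions listed in all 6 libraries (3 and 5). VDR, the vitamin D receptor gene, had 72.1, 57.9 and 69.5 at 10 nM and 0, 0 and 12.2 at 0.1 nM (62.4 ± 9.09, adjusted p = 0.0165). NR3C2, the mineralocorticoid receptor gene, and NR5A2, an orphan receptor gene, had sites at 0 in all 3 0.1 nM libraries that rose by 61.7 and 58.6 points. Among luminal transcription factor genes, 10 of 391 regions ranked higher (2.56%) and 4 lower (1.02%), against the same 3.17% and 1.29%, with 4 and 4 at regions listed in all 6 libraries. The site 62.7 kb from GATA3 had 91.2, 91.1 and 92.8 at 10 nM and 66.3, 67.4 and 51.7 at 0.1 nM (29.9 ± 4.22, adjusted p = 0.0165).

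Of 134 regions of cell cycle inhibitor genes, which act in growth arrest, 4 ranked higher (2.99%) and 1 lower (0.746%), close to 3.17% and 1.29% of all regions, and with all 15 LNCaP libraries in the fit 4 and 7 did. The 3 GADD45 genes, induced by stress and growth arrest, each held 1 rise. The GADD45G site, 15.3 kb from the gene, had 94.1, 93.4 and 97.4 at 10 nM and 76.4, 75.4 and 73.2 at 0.1 nM (20 ± 1.93, limma adjusted p = 0.0160), against 0 in all 3 vehicle libraries. GADD45B and GADD45A rose by 13.4 and 18.3 points. All 3 sites lost their call when peaks were ranked by fold enrichment and with all 15 LNCaP libraries in the fit.

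The fourth rise of this list was 89.4 kb from CDKN2B, which encodes the CDK4 and CDK6 inhibitor p15, with 83.0, 87.5 and 78.0 at 10 nM and 59.3, 55.7 and 52.0 at 0.1 nM (27.1 ± 4.17, adjusted p = 0.0176). The CDKN2B site also lost its call by fold enrichment and with all 15 libraries. BTG2, an antiproliferative gene, had the fall (−6.63 ± 1.51, adjusted p = 0.0430). In the cell cycle list, 4 of 200 regions ranked higher (2%) and 2 lower (1%), beside 3.17% and 1.29% of all regions, and the balance turned with −log10 q of at least 5 (2 and 3), with all 15 libraries (5 and 6) and without 10 nM replicate 3 (1 and 5). CDK1, the mitotic kinase gene, had a site 10.7 kb away at 45.3, 45.2 and 56.9 at 10 nM and 0 in all 3 at 0.1 nM (49.1 ± 9.03, adjusted p = 0.0246). E2F2, an S-phase transcription factor gene, had a window 0.324 kb from a gene end at 0, 39.9 and 24.7 at 10 nM and 69.2, 74.3 and 66.9 at 0.1 nM (−48.6 ± 10.2, adjusted p = 0.0345), and did not pass when a peak had to cover the window's centre.

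Energy metabolism genes had 14 higher regions and 1 lower one among 201 (6.97% and 0.498%), beside 3.17% and 1.29% of all tested regions. Rises lay at 8 of the 20 genes, with 4 at PPARGC1A, which encodes the mitochondrial biogenesis coactivator PGC-1alpha, 3 at SLC2A1, 2 at PDK4 and 1 each at PPARGC1B, SLC2A12, HK1, PFKFB3 and PFKP. SLC2A1, the glucose transporter gene GLUT1, had 63.6, 58.6 and 68.1 at 10 nM and 0 in all 3 libraries at 0.1 nM (63.4 ± 8.72, limma adjusted p = 0.0164). PDK4, which encodes a kinase that shuts off pyruvate dehydrogenase, had 71.9, 76.0 and 74.6 at 10 nM and 0 in all 3 at 0.1 nM (74.2 ± 8.07, adjusted p = 0.0160).

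PPARGC1B, the sister gene of PPARGC1A, had 86.6, 88.7 and 91.0 at 10 nM and 58.6, 66.7 and 54.2 at 0.1 nM (28.9 ± 3.85, adjusted p = 0.0160). Like the SLC2A1 and PDK4 sites it was at 0 in all 3 vehicle libraries. The 5 called regions of PPARGC1A were not of 1 direction. The strongest rise had 72.5, 71.1 and 78.6 at 10 nM and 0 in all 3 at 0.1 nM, while another site inside the gene had 49.3, 40.2 and 28.2 at 10 nM and 75.5, 74.6 and 66.7 at 0.1 nM (−33.0 ± 6.83, adjusted p = 0.0328).

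Lipid and sterol genes had 3 higher and 6 lower regions of 298, the lower ones being 2.01% beside 1.29% of all regions, where 3.17% ranked higher. More rises than falls were called in the fit of all 15 libraries (15 and 12), with list length as a block (13 and 10) and without the trend and robust options of limma (8 and 5). SREBF2, the master regulator gene of cholesterol synthesis, had 75.6, 78.0 and 78.6 at 10 nM and 86.3, 90.4 and 90 at 0.1 nM (−11.5 ± 2.12, adjusted p = 0.0246). SCD, the stearoyl-CoA desaturase gene, had 10.2, 0.0258 and 27.0 at 10 nM and 65.6, 55.6 and 62.6 at 0.1 nM (−48.9 ± 9.72, adjusted p = 0.0298).

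In polyamine synthesis, known to be high in prostate, 2 of 79 regions rose (2.53%) and 1 fell (1.27%), beside 3.17% and 1.29% of all regions, and 1 rose and 2 fell when ranked by fold enrichment. The SMOX site, in the spermine oxidase gene, had 71.3, 73.6 and 73.2 at 10 nM and 0, 0 and 21.1 at 0.1 nM (65.6 ± 8.93, adjusted p = 0.0162). ODC1, the rate-limiting enzyme gene, had 84.3, 82.5 and 87.9 at 10 nM and 75.4, 71.4 and 69.6 at 0.1 nM (12.7 ± 2.86, adjusted p = 0.0415). SMS, the spermine synthase gene, fell by 13.7 points.

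Androgen metabolism had 4 higher (3.88%, beside 3.17% of all regions) and 0 lower regions of 103 (beside 1.29%). The rises lay at HSD3B2, HSD17B3, SRD5A1 and UGT2B11. In the fit of all 15 libraries 6 regions were higher and 0 lower (6.12% higher, beside 5.42% of all regions). With ranks turned into normal scores 2 were higher (1.94%, beside 2.69%), and with no filter 1 of 145 (0.690%, beside 1.22%). Without 10 nM replicate 3, 1 was higher. SRD5A1, the 5-alpha-reductase gene, had 98.0, 97.5 and 99.3 at 10 nM and 93.7, 94.3 and 92.9 at 0.1 nM (4.62 ± 0.928, adjusted p = 0.0305). This site lost its call by fold enrichment, by normal scores and with no filter. The unfolded protein response list had 4 higher (3.13%) and 2 lower (1.56%) of 128, near the 3.17% and 1.29% of all regions, led by CREB3L2, a secretory pathway transcription factor gene, with 85.8, 78.5 and 81.6 at 10 nM and 42.3, 55.5 and 43.6 at 0.1 nM (34.9 ± 5.09, adjusted p = 0.0165).

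Marker lists of other cell types and a control list are set beside the same 3.17% higher and 1.29% lower of all regions. Basal genes had 4 higher and 2 lower of 77 regions (5.19% and 2.60%), and stromal genes 2 and 2 of 61 (3.28% each). Immune genes had 1 and 1 of 32 (3.13% each), neuroendocrine genes 2 and 1 of 67 (2.99% and 1.49%) and housekeeping genes 1 and 0 of 101 (0.990% and 0%). S100A2, a calcium-binding protein gene of basal cells, was the one listed gene with a rise within 1 kb of its end, with 82.7, 81.0 and 82.4 at 10 nM and 52.7, 57.7 and 59.9 at 0.1 nM (25.3 ± 3.77, adjusted p = 0.0171). Falls within 1 kb of an end of a listed gene included windows at CENPN, a kinetochore gene, E2F2 and MYC. The CENPN window had 88.9, 84.1 and 81.7 at 10 nM and 96.1, 96.3 and 94.1 at 0.1 nM (−10.6 ± 1.86, adjusted p = 0.0221). The MYC window, 0.628 kb from an end of the oncogene, had 0.291, 0 and 11.2 at 10 nM and 58.1, 47.3 and 39.2 at 0.1 nM (−44.3 ± 9.70, adjusted p = 0.0386).

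The other LNCaP libraries, which did not enter the test, place these sites on the dose series. Regions higher at 10 nM had a median rank, as the mean of each group of 3, of 0 with vehicle, 0 at 0.03 nM, 6.62 at 0.06 nM, 12.5 at 0.1 nM and 66.1 at 10 nM. The share of them listed was 17.2%, 26.0%, 44.9%, 54.9% and 100% in the same order, the last fixed by the call. All tested regions had medians of 38.0, 42.7, 46.7, 48.0 and 48.9. Their listed shares were 65.2%, 69.6%, 79.8%, 85.0% and 89.9%, so listing rose with dose there too. Windows were placed only on summits of the 10 and 0.1 nM lists. Of the 4216, 1616 had no summit in any of the 9 vehicle, 0.03 and 0.06 nM lists, and 1037 had none in any LNCaP library but those at 10 nM. Regions lower at 10 nM had medians of 78.9, 76.4, 72.1, 67.9 and 26.9. Of the 1717, 1484 were listed in all 9 vehicle, 0.03 and 0.06 nM libraries. The counts of 1616, 1037 and 1484 have no counterpart over all tested regions here.

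**Figure D4:**
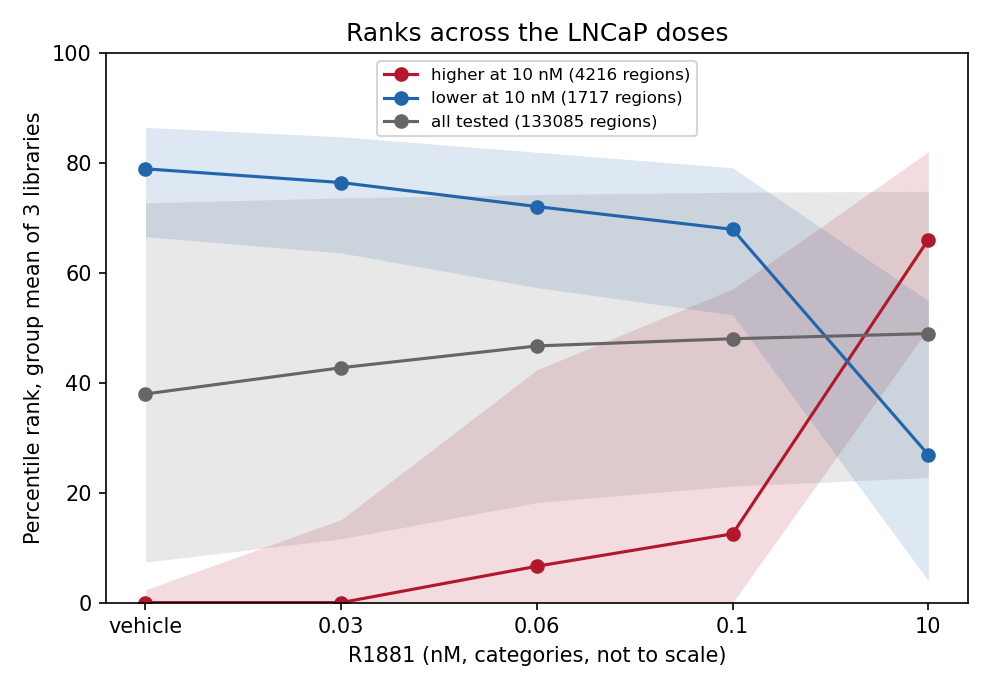
Median percentile rank (lines, group means of 3 libraries) and interquartile range (bands) by R1881 dose for regions higher at 10 nM, regions lower at 10 nM and all tested regions. The higher regions have medians of 0, 0, 6.62, 12.5 and 66.1 with increasing dose; the 0.1 and 10 nM values were used in the call, the vehicle, 0.03 and 0.06 nM values were not.

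Vehicle and 0.06 nM share no library with the test, so their difference can be set beside the calls. At 0.06 nM all 3 libraries ranked above all 3 vehicle libraries at 25.9% of the higher regions and below them at 0.380%, where 13.1% and 5.74% of all tested regions did so. At the lower regions all 3 ranked below vehicle in 30.9% and above in 2.85%. By limma, 539 of the higher regions (12.8%) were called higher at 0.06 nM than with vehicle and 0 lower, beside 3.96% and 0.451% of all tested regions, and 55 of the lower regions (3.20%) were called lower and 11 higher. Most sites passed neither count at 0.06 nM. On average 17.2% of the higher regions were listed in a vehicle library, beside 65.2% of all tested regions. A region at 0 with vehicle cannot rank below it. The low shares of falls among the higher regions are thus partly fixed, and all tested regions are no like baseline for them. Lower regions had a median vehicle rank of 78.9, beside 38.0 for all tested regions, and so less room to rise.

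In VCaP, whose libraries are separate, the step from 0.06 to 10 nM gave 0 calls by limma among 81946 regions (0%), although the unadjusted p was under 0.05 for 8310 of them (4097 would be with no change). The VCaP values at the sites called in LNCaP still leaned the same way. Of the 2409 higher regions tested in both lines, all 3 VCaP libraries at 10 nM ranked above all 3 at 0.06 nM in 1283 (53.3%) and below in 11, where 9.26% and 7.44% of the 74347 regions tested in both lines did so. The median VCaP difference was 21.8 points for these and −0.0505 for all. Of the 861 lower regions tested in both, 273 (31.7%) ranked below and 4 above, with a median of −12.7. No summit was listed in any of the 6 VCaP libraries at 1017 of the higher and 528 of the lower regions. These counts have no counterpart over all tested regions here. Tested in both lines were 2409 of the 4216 higher, 861 of the 1717 lower and 74347 of all 133085 regions. A region was tested in VCaP with a summit in at least 3 of these 6 libraries. A region unlisted at 0.06 nM thus entered only when listed in all 3 at 10 nM, and then could not overlap. The same holds with the doses exchanged. How many of the 1283 and 273 entered in this way was not counted.

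**Figure D5:**
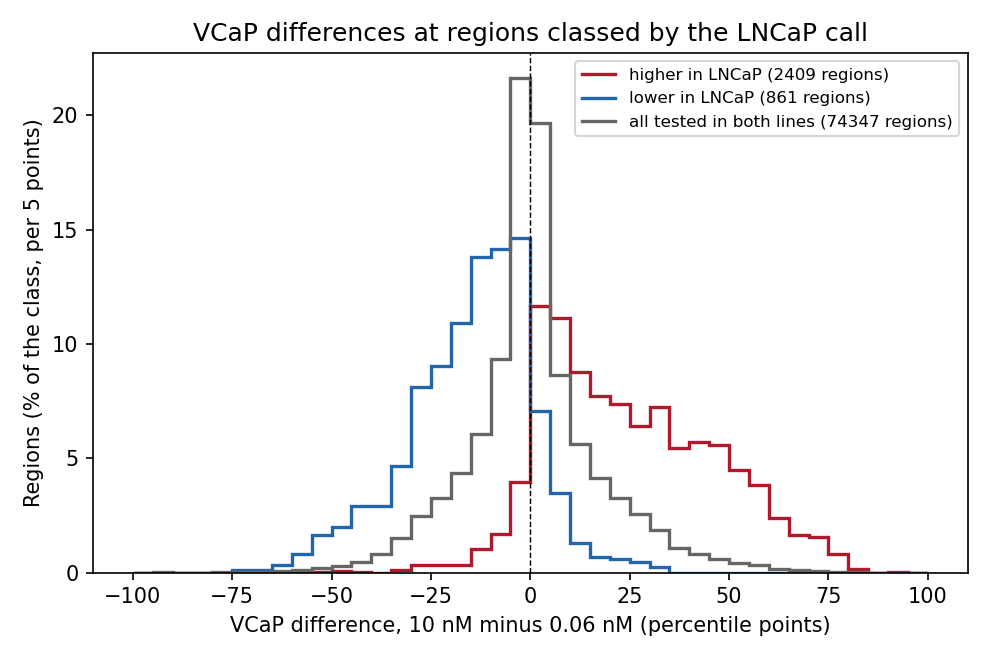
Distribution of the VCaP difference (10 nM minus 0.06 nM, in percentile points, bins of 5) for regions called higher in LNCaP, called lower in LNCaP and all regions tested in both lines, each as a percentage of its class. The class called higher has a median of 21.8, the class called lower −12.7 and all regions −0.0505.

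Among the 12 largest LNCaP rises, all 12 had a summit in at least 1 VCaP library, and 9 had every VCaP library at 10 nM above every one at 0.06 nM. VANGL1 had 69.8, 78.5 and 74.9 in VCaP at 10 nM and 0 in all 3 at 0.06 nM. PPARGC1A had 79.0, 80.3 and 83.4 in VCaP at 10 nM and 66.8, 65.6 and 69.7 at 0.06 nM, so the site was listed in VCaP at both doses. In LNCaP it was absent from all 3 cut lists at 0.1 nM and had 0, 0 and 6.79 at 0.06 nM. Of the 12 largest falls, 7 had a summit in VCaP and 3 had every 10 nM library below every 0.06 nM one. TWF1 was one of them, with 57.4, 42.5 and 35.7 at 10 nM and 75.2, 76.1 and 77.3 at 0.06 nM.

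Whole lists were compared as single values per library. The number of entries averaged 202686 ± 31233 at 10 nM and 173039 ± 35083 at 0.1 nM (SD, n = 3 each; exact permutation p = 0.2, two-sided, where 0.1 is the smallest that 3 against 3 can give). Covered length was 107 ± 19.1 and 87.9 ± 19.2 Mb (exact p = 0.2), and the background pileup, a measure of relative depth, differed by 0.183 (exact p = 0.8). Median peak width was 535 ± 35.5 and 503 ± 37.1 bp (exact p = 0.5). The part of list length and depth in the calls was not tested beyond the values given above.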

How the data were processed

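Omni-ATAC-seq peak lists of LNCaP and VCaP were used, 1 per library. Per the submitters' processing notes, MACS2 2.2.7.1 was among the tools used, beside BWA 0.7.17, deepTools 3.5.1 and Trimmomatic 0.39, on GRCh38 (hg38); their settings are not given in the sources used here. In the deposited files a peak's score equals 10 times its −log10 p without the decimals. Fold enrichment over local background, a ratio, stands in the authors' signal column. Each deposited summit has a −log10 p, a −log10 q and an offset in bp from where its peak starts. Lists end at a −log10 p of 2. Tn5 read shifting could move summits by a few bases and is not stated in the sources used here.

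Windows of 501 bp centred on summits were placed strongest first, without overlap, over the 6 cut lists (198646 windows). limma 3.58.1 (R 4.3.3), with trend and robust moderation, was fitted to the ranks of the 6 libraries and tested on simulated data. VCaP lists were cut to 132379 entries. Library measures were compared by exact permutation tests. Summit pileups were solved from fold enrichment and −log10 p under a Poisson model and 100% came out whole to within 0.05. Regions were given the nearest protein-coding gene within 100 kb (RefSeq, GRCh38.p14); a "gene end" is either end, since strand is absent from that table, and a nearest gene is not shown to be regulated.

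Named regions follow a rule: the 12 largest rises and falls called also with the centre base covered, without overlap of groups, 1 per gene; in each of 17 gene lists the called regions of smallest p, up to 12 genes for androgen-induced genes and 4 for others; established targets at their highest rank; and called windows within 1 kb of an end of a listed gene. Promoters, second sites of a gene, and genes named for their counts were chosen after their values were seen. Some genes that the rule names are not reported here. The comparison, members and lists were chosen with earlier results of these data known. Alternatives covered list length, threshold, ranking column, scale, filter, overlap, libraries fitted, blocks and left-out libraries.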

Additional observations from a re-analysis of the deposited data

How the results depend on the processing

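The 5933 calls became 1305 without cutting the lists, 1763 when only the 50000 strongest peaks were kept, 3286 with no filter, 3494 at regions with a summit in all 6 libraries (61.3% higher), 11045 with all 15 LNCaP libraries and 0 to 4003 when 1 library was left out. Whether replicate numbers pair the libraries is not settled. Deviations from the group means correlated between same-numbered libraries of the 2 doses with r of 0.294, −0.144 and 0.310. The highest r between doses for other numbers was 0.297 (10 nM replicate 4 with 0.1 nM replicate 5). The main fit did not use the numbers, and the replicate block gave 9282 calls. The length of the deposited list as a block, chosen after seeing the data, gave 10119, of which 4204 higher and 1714 lower calls were shared with the 5933. The higher share was 94.4% on uncut lists, 57.6% on summit pileups (2860 higher, 2109 lower) and 52.9% without 10 nM replicate 3, beside 71.1%. No other setting moved the count by over 1.5 times. VCaP kept 0 calls under the block and without each library.

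Of 131 called regions named by the rules or chosen after seeing values, 20 stayed called in the same direction under every setting that kept all 6 libraries and could be fitted. Reversed were the OPRK1 site (6.21) when a peak had to cover the centre base or overlap by at least 1 or 250 bp, and the FKBP5 site 4.45 kb outside the gene (−10.8) by fold enrichment; the cause was not tested. Library differences changed sign for median fold enrichment (0.117; −0.0409 with −log10 q of at least 5; −0.0498 to 0.402 without 1 replicate number), median width (32; −7 to 54.5) and background pileup (0.183; −0.20 to 0.737). Depth is unknown, so a site at 0 may hold signal below the list's end.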

Other observations

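Some genes were the nearest gene of several changed sites. These genes were picked for their number of calls after their values were seen. Long genes hold more tested regions, and 3.17% of all regions ranked higher and 1.29% lower. GLIS3, a zinc-finger transcription factor gene, had 7 higher and 0 lower regions of 47 tested, and its strongest site had 79.7, 79.1 and 76.8 at 10 nM and 55.0, 62.3 and 58.1 at 0.1 nM. PDE4D, a cyclic AMP phosphodiesterase gene, had 6 higher and 1 lower of 91, RAD51B, a recombination repair gene, 6 and 2 of 58, and KCNMA1, a potassium channel gene, 6 and 0 of 71. NAALADL2 leaned the other way, with 1 higher and 7 lower of 96. Its largest fall had 0 in all 3 libraries at 10 nM and 67.4, 60.8 and 55.9 at 0.1 nM.

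Neighbouring sites could move in opposite directions. A pair of windows at the end of NCAPD3, a condensin subunit gene, fell: one had 78.9, 77.3 and 80.8 at 10 nM and 93.0, 92.4 and 93.2 at 0.1 nM, the other 80.3, 77.9 and 71.3 at 10 nM and 92.2, 93.7 and 91.5 at 0.1 nM. The next gene, VPS26B, holds one of the 12 largest rises (83.6, 76.5 and 85.4 at 10 nM, 0 at 0.1 nM). In DDC, beside the fall given above, a second site had 82.6, 89.1 and 85.0 at 10 nM and 54.3, 52.7 and 67.8 at 0.1 nM (difference 27.3 ± 4.62 SE, limma adjusted p = 0.0206).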
